A study of Rattus norvegicus with 4 samples.

Results

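Of the 26313 Ensembl rat gene identifiers measured in arteries, 6 genes of vascular inflammation are described here. They are the cytokines Il6 (ENSRNOG00000010278) and Il1b (ENSRNOG00000004649), the chemokine Ccl2 (ENSRNOG00000007159), the adhesion molecules Icam1 (ENSRNOG00000020679) and Vcam1 (ENSRNOG00000014333), and the NF-kB inhibitor Nfkbia (ENSRNOG00000007390). They were chosen by name for their role in inflammation and not by their level. RNA-Seq was done on the thoracic aorta (AO, a conduit artery; samples AO1 and AO2) and on the small mesenteric arteries (MA, resistance arteries; samples MA1 and MA2) of untreated adult male Sprague-Dawley rats. By the study's methods AO1 and MA1 were dissected from the same animal, and AO2 and MA2 each from another. The MA samples were the arterial arcade without the superior mesenteric artery, and cleaning of fat is described for them and not for AO. Each sample is unsorted tissue from 1 animal, with endothelium, smooth muscle, adventitia and whatever cells adhered. In such bulk samples, fewer cells of a type and less RNA per cell cannot be told apart.

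Vessel wall inflammation is carried by a short chain of signals. The cytokine interleukin-1 beta (Il1b), made mainly by myeloid cells, activates the transcription factor NF-kB in endothelium and smooth muscle, and interleukin-6 (Il6) is a cytokine made in response. Ccl2 (MCP-1) attracts monocytes, Icam1 and Vcam1 bind leukocyte integrins at the endothelial surface, and Nfkbia encodes I-kappa-B-alpha, which holds NF-kB in the cytoplasm and is itself a well known NF-kB target.

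The values are RPKM, the reads of a gene relative to its length in kilobases and to the size of the library, and all 6 identifiers were listed. For a given gene and library every read adds the same amount, so whole reads could be worked back from the values. They summed to between 72524718 and 82449450 reads on genes per sample. The gene length behind each value was solved with them and served as a check of the names, because the files give identifiers alone. For Il6 the length was 4577 bp and for Ccl2 1799 bp, both equal to the gene span in the RefSeq annotation of the assembly GRCr8. Il1b had 6441 bp against 6382 bp, Icam1 11793 bp against 11931 bp, Vcam1 19438 bp against 19734 bp and Nfkbia 3233 bp against 3464 bp, so the largest gap was 6.67% of the RefSeq span. These lengths are those of the whole gene with its introns. A level per kilobase is therefore lower for a gene with long introns, which touches every comparison of level between genes but none between samples.

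NF-kB acts through short sites near gene starts, so the 250 bases before the annotated start were searched in the RefSeq sequences of GRCr8, which hold 5 of the 6 genes and not Ccl2. The NF-kB consensus motif, searched on both strands, was found in Il6, Vcam1 and Nfkbia, that is in 3 of 5, and in 6.33% of 33469 promoters of the same length. The 30 bases around each match are shown to let the sites be compared, 5′ to 3′ on the strand of the gene, with the match in capitals.
Il6, GRCr8 chr4:5894624-5894653, minus strand: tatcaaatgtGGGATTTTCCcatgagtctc
Vcam1, GRCr8 chr2:206742857-206742886, minus strand: tccccttgaaGGGATTTCCCtccgcctctc
Nfkbia, GRCr8 chr6:78597084-78597113, minus strand: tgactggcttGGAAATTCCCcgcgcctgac
The match began 68 bases before the start in Il6, 93 bases before it in Vcam1 and 31 bases before it in Nfkbia, where it reads on the opposite strand. Vcam1 is the gene whose level differed most between samples below, and its 250 bases before the start, GRCr8 chr2:206742784-206743033 on the minus strand, are shown whole with the NF-kB match in capitals.
Vcam1 promoter: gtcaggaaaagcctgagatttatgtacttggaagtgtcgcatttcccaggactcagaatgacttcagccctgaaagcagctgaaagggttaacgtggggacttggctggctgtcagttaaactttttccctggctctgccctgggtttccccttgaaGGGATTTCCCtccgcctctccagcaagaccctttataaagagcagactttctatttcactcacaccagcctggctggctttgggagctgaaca

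The core promoter letters TATAAA were found before Il1b, Icam1 and Vcam1, against 12.9% of all promoters, with overlapping matches on the opposite strands in Vcam1. The cyclic AMP response element TGACGTCA was found in Il6 and in 1.59% of all promoters. The AP-1 letters TGANTCA were in 0 of the 5 promoters and in 6.34% of all. A match is a description of the letters in this window, and its absence, as for NF-kB in Icam1 and Il1b, says nothing about binding.

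**Figure D1:**
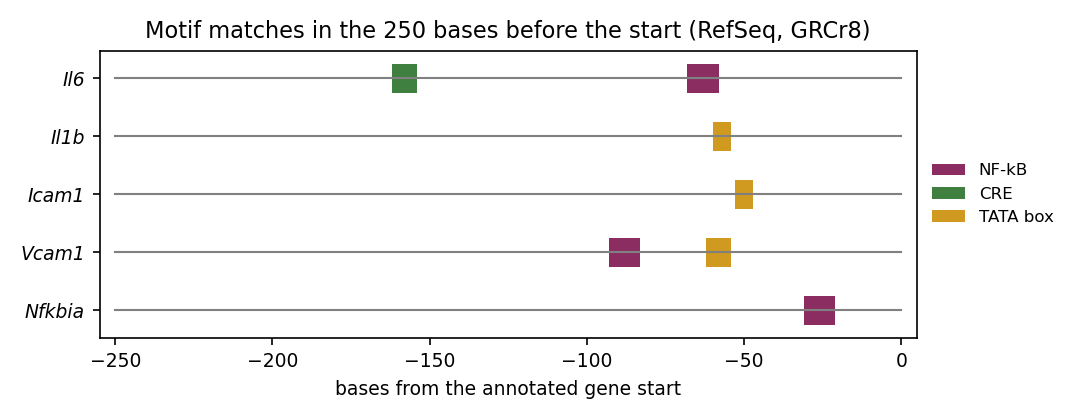
Position of motif matches in the 250 bases before the annotated start of 5 of the genes (x axis, bases from the start; coloured boxes, matches on either strand). The NF-kB boxes lie at 68 bases before the start in Il6, 93 in Vcam1 and 31 in Nfkbia, and the TATA boxes of Il1b, Icam1 and Vcam1 lie within 62 bases of the start.

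The cytokine Il6 was at the edge of detection. Its values were 0.00484 RPKM in AO1 and 0 in AO2, and 0.00524 in MA1 and 0.00982 in MA2, which are 2, 0, 2 and 4 reads. If each read is an independent count, a count of 0 in AO2 allows up to 3 reads, or 0.0075 RPKM. This limit covers counting error only and is likely too low, because the mates of a read pair seem to have been counted singly. No fold change between the tissues is given for Il6, since 8 reads in all cannot show one.

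Il1b was low but present in every sample. It had 0.0722 RPKM in AO1 and 0.112 in AO2, and 0.203 in MA1 and 0.0751 in MA2, from 42, 63, 109 and 43 reads. MA1 was the highest and MA2 lay next to AO1, so the tissues overlapped.

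The chemokine Ccl2 had 0.819 RPKM in AO1 and 0.363 in AO2, and 1.11 in MA1 and 0.969 in MA2, from 133, 57, 166 and 155 reads. AO2 was the low sample, and the remaining 3 lay close together.

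Before tissues were compared, RPKM were divided by a factor per sample, the median over genes of its ratio to the geometric mean of the samples. The factors were 0.789 and 0.897 for AO1 and AO2, and 1.22 and 1.16 for MA1 and MA2. The result is called scaled RPKM below. Without it, the median gene stood 0.37 higher in MA on the log2 scale, and with it at -0.046.

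Icam1, the ligand of the leukocyte beta-2 integrins, had 1.32 RPKM in AO1 and 1.47 in AO2, and 4.11 in MA1 and 1.96 in MA2. As scaled RPKM it was 1.67 in AO1 and 1.64 in AO2, and 3.37 in MA1 and 1.7 in MA2. MA1 alone stood apart, and MA2 exceeded AO1 by so little on the scaled values that the tissues all but touched.

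Vcam1, the ligand of the integrin alpha-4 beta-1, had 0.81 RPKM in AO1 and 3.68 in AO2, and 7.32 in MA1 and 1.74 in MA2, from 1421, 6255, 11850 and 3005 reads. As scaled RPKM it was 1.03 in AO1 and 4.11 in AO2, and 6.0 in MA1 and 1.5 in MA2. AO2 and MA1, from different rats, were the high samples and AO1 and MA2 the low ones, so each tissue held a high and a low sample.

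Nfkbia had the highest RPKM of the 6 genes in every sample, with 15.7 RPKM in AO1 and 11.1 in AO2, and 21.6 in MA1 and 10.8 in MA2. These came from 4576, 3143, 5817 and 3098 reads, and before division by gene span Vcam1 had more reads in AO2 and MA1. As scaled RPKM it was 19.9 in AO1 and 12.4 in AO2, and 17.7 in MA1 and 9.3 in MA2. AO1 and MA1, the samples of the same rat, were the higher of each tissue, and the tissues overlapped. Over the genes tested below, AO1 was above AO2 in 53.5% and MA1 above MA2 in 47.2%, and an effect of the animal was not tested.

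**Figure D2:**
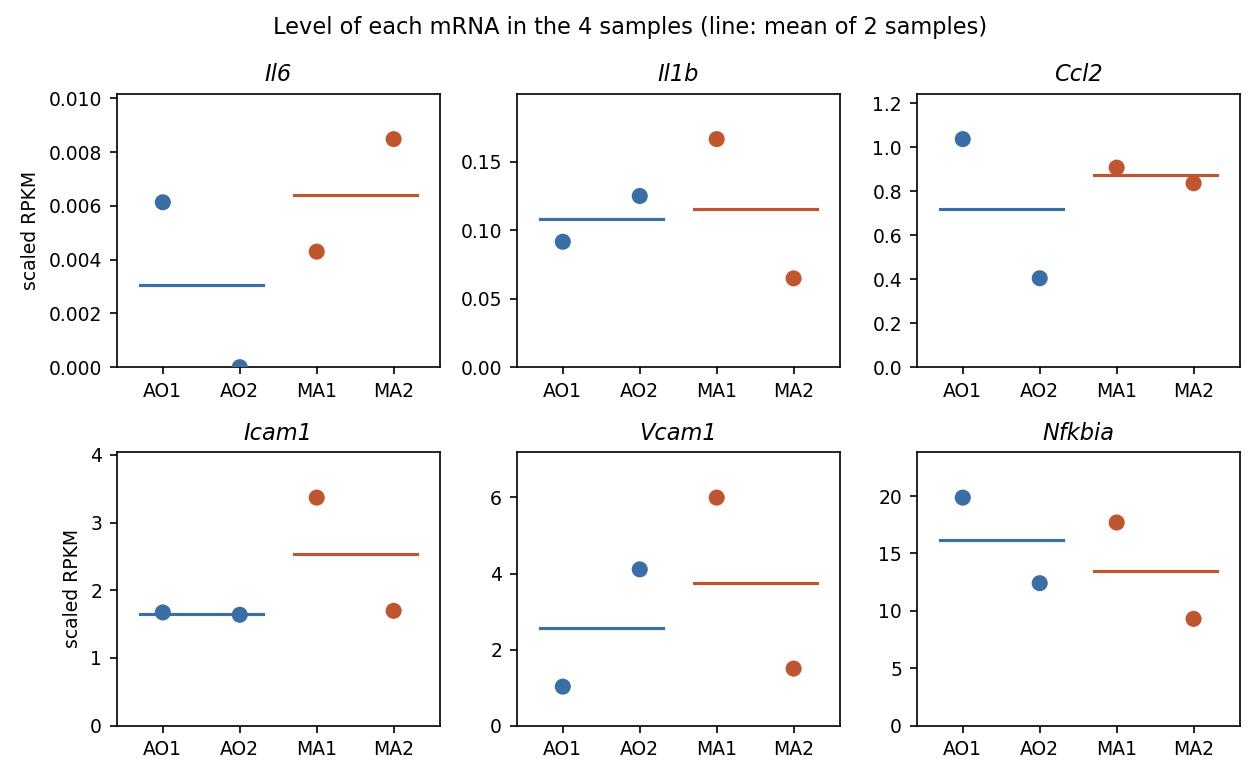
Scaled RPKM (y axis, from 0, a scale of its own per panel) of each gene in AO1, AO2, MA1 and MA2 (points), with the mean of the 2 samples of a tissue as a line. Vcam1 is high in AO2 at 4.11 and MA1 at 6.0, and Icam1 is high in MA1 at 3.37. Per kilobase of gene span, Nfkbia is the highest gene in each sample.

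On the scaled RPKM per kilobase of gene span, the mean over the 4 samples was 14.8 for Nfkbia, 3.16 for Vcam1, 2.09 for Icam1, 0.796 for Ccl2, 0.112 for Il1b and 0.00473 for Il6. Neighbours in this order whose samples overlapped were Vcam1 and Icam1, and the lowest sample of Vcam1 also lay just under the highest of Ccl2. Nfkbia lay above Vcam1, Icam1 above Ccl2, Ccl2 above Il1b and Il1b above Il6 in all 4 samples. Among all 26313 identifiers, those at 0 included, Nfkbia exceeded between 94.0% and 96.5% of the RPKM values of a sample, and Il1b between 44.8% and 53.1%. The adhesion molecules exceeded 79.8% to 88.0% for Icam1 and 74.3% to 92.1% for Vcam1.

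The comparison of MA with AO asks whether a resistance artery and a conduit artery, as dissected from untreated rats, differ in these mRNAs. None of the 6 was called different. A gene was called when its limma p, adjusted by Benjamini and Hochberg's method, did not exceed 0.05, it differed by more than 2-fold on the log2(scaled RPKM + 0.5) scale, and the MA samples lay together above or below the mean of AO. Genes entered the test if 2 or more samples reached 1 RPKM. This left Icam1, Vcam1 and Nfkbia, so 0 of 3 members tested were called, against 7.71% of the 7203 genes tested, and none had an unadjusted p of at most 0.05. By direction, 0.93% of all genes tested were called higher in MA and 6.77% higher in AO. Without scaling, those shares were 2.36% and 3.61%, and again none of the 3 was called.

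Icam1 had a scaled RPKM of 2.53 ± 1.18 (SD, n = 2) for MA against 1.66 ± 0.0241 (SD, n = 2) for AO. Its log2 fold change was 0.44 (SE 0.31, 95% interval -0.40 to 1.27, adjusted p = 0.469 from limma), which allows anything from 0.759-fold to 2.41-fold. With MA1 left out the log2 fold change was 0.028, and with MA2 left out it was 0.84 (adjusted p = 0.12). It was the only 1 of the 6 genes with both MA samples above both AO samples on scaled values, a pattern shared by 21.9% of the genes tested. As deposited, 3 of the 6 (Il6, Ccl2 and Icam1) had this pattern, against 58.2% of the genes tested, which include neither Il6 nor Ccl2. For Il6, AO1 and MA1 had the same 2 reads, so their order rests on library size and shows no difference.

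For Vcam1 the scaled RPKM was 3.75 ± 3.18 (SD, n = 2) for MA against 2.57 ± 2.18 (SD, n = 2) for AO. The log2 fold change of 0.44 (SE 0.81, 95% interval -1.73 to 2.61, adjusted p = 0.798 from limma) allows from 0.302-fold to 6.13-fold, and 99.1% of the genes tested had a smaller standard error. Its sign turned when a sample was left out, to -0.35 without AO1 and -0.41 without MA1, while it was 1.24 without AO2 and 1.29 without MA2.

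Nfkbia had a scaled RPKM of 13.5 ± 5.94 (SD, n = 2) for MA against 16.1 ± 5.27 (SD, n = 2) for AO. The log2 fold change was -0.28 (SE 0.41, 95% interval -1.38 to 0.82, adjusted p = 0.743 from limma), between 0.383-fold and 1.77-fold. It turned to 0.20 with the RPKM as deposited, below the shift of 0.37 of the median gene on that scale. Without AO1 it was 0.049 and without MA2 0.17.

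Ccl2 and Il1b were below the filter and entered only in fits with more genes. When 2 or more samples had to reach only 0.1 RPKM, where 2.66% of 13811 genes were called, Ccl2 had a log2 fold change of 0.22 (SE 0.29, adjusted p = 0.728) and Il1b of 0.013 (SE 0.10, adjusted p = 0.96). The added 0.5 presses these low values together. On the recovered reads of the 18257 genes with at least 10 reads over the samples, where limma-voom called 2.1%, Ccl2 had 0.44 (SE 0.54, 95% interval -0.98 to 1.86, adjusted p = 0.721). In the same fit Il1b had -0.052 (SE 0.64, 95% interval -1.73 to 1.63, adjusted p = 0.978). For Ccl2 the sign rested on AO2, and without it the value on the log2(scaled RPKM + 0.5) scale was -0.16. Il1b likewise turned to -0.026 without AO1 and -0.11 without MA1. No single gene was tested by exact permutation, because 2 samples in each group allow no two-sided p under 0.333. The p-values rest on these samples alone. These fits treat the samples as independent, although AO1 and MA1 come from the same rat. In each limma fit the variance of a gene is drawn towards that of the other genes, so its SE and p do not rest on its own spread alone.

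**Figure D3:**
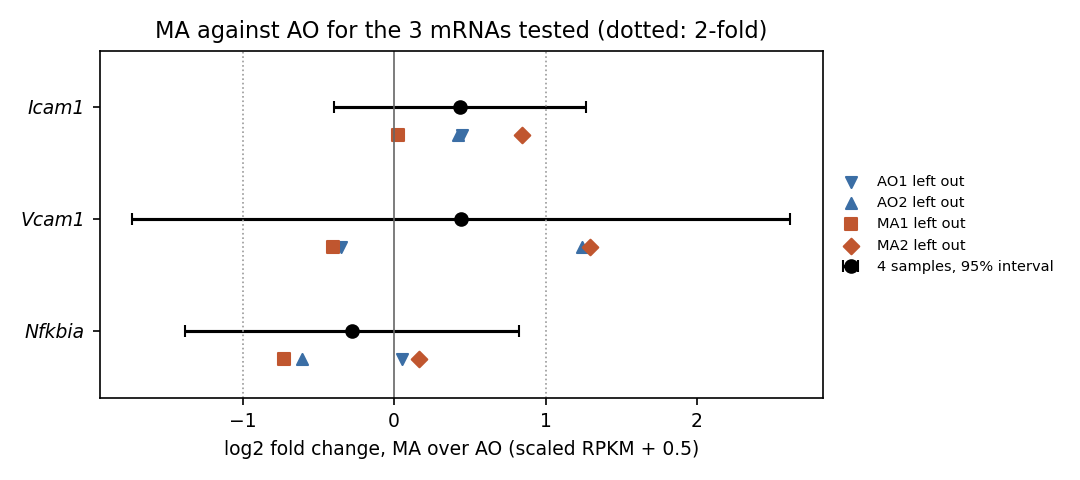
Log2 fold change of MA over AO on scaled RPKM + 0.5 (x axis) for Icam1, Vcam1 and Nfkbia, from all 4 samples with the 95% interval (black) and with each sample left out in turn (coloured markers). All 3 intervals cross 0, and the Vcam1 markers lie between -0.41 and 1.29.

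The next comparison was between the 2 samples of a tissue. Over the genes tested, the median absolute log2 difference was 0.20 between AO1 and AO2 and 0.24 between MA1 and MA2. The ratios below are of scaled values, with 95% exact binomial intervals from the recovered reads. They compare libraries and cover counting error only, and are likely too narrow, because the mates of a read pair seem to have been counted singly. Among genes of odd solved length, 1339 values were 2 reads, 571 were 3 reads and 669 were 4 reads, an excess of even counts.

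Vcam1 was 4.0-fold higher in AO2 than in AO1 (3.78 to 4.24) and 4.0-fold higher in MA1 than in MA2 (3.84 to 4.16). On the log2(scaled RPKM + 0.5) scale, only 1.04% of the genes tested differed more between the AO samples and 1.42% between the MA samples. It was among 100 genes, 1.39% of those tested, that were over 2-fold apart within both tissues, and among 20 of these that were high in AO2 and MA1. Within the rat that gave AO1 and MA1, Vcam1 was 5.84-fold higher in MA1 on scaled values (5.53 to 6.18) and 9.04-fold higher as deposited. MA2 had 0.365 of the scaled level in AO2 (0.350 to 0.382), a sample of another rat, and 0.472 as deposited.

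Icam1 followed Vcam1 in MA but not in AO. It was 1.99-fold higher in MA1 than in MA2 (1.88 to 2.09), a difference exceeded by 10.2% of the genes tested. Between AO1 and AO2 the ratio was 1.02 (0.949 to 1.10), and 93.4% of genes differed more. The ratio of Vcam1 to Icam1 RPKM within a sample does not depend on scaling, and it was 0.614 in AO1 (0.570 to 0.661), 2.51 in AO2 (2.37 to 2.65), 1.78 in MA1 (1.72 to 1.85) and 0.885 in MA2 (0.836 to 0.936). The adhesion molecule with more reads per kilobase of gene span was thus Vcam1 in AO2 and MA1, and Icam1 in AO1 and MA2. Before division by span, Vcam1 had more reads than Icam1 in every sample. The reads were 1421 against 1405 in AO1, 6255 against 1513 in AO2, 11850 against 4039 in MA1 and 3005 against 2061 in MA2. Which of them was higher in AO1 and MA2 therefore rested on the length used.

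Nfkbia was 1.6-fold higher in AO1 than in AO2 (1.53 to 1.68) and 1.9-fold higher in MA1 than in MA2 (1.82 to 1.99), and 11.1% and 8.27% of the genes tested differed more. Within the shared rat, MA1 had 0.891 of the scaled level in AO1 (0.857 to 0.926), but with the RPKM as deposited it had 1.38 times that level, so the direction rested on the scaling.

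Ccl2 was 2.57-fold higher in AO1 than in AO2 (1.87 to 3.56), but its MA samples were alike in level, with a ratio of MA1 to MA2 of 1.09 (0.867 to 1.36). For Il1b the difference lay in MA, where MA1 was 2.57-fold higher than MA2 (1.79 to 3.75). In AO its ratio of AO1 to AO2 was 0.733 (0.484 to 1.10), an interval that includes no difference. Ccl2 thus did not share the order of Vcam1 over the 4 samples, while Il1b had AO2 and MA1 as its higher samples as Vcam1 did.

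**Figure D4:**
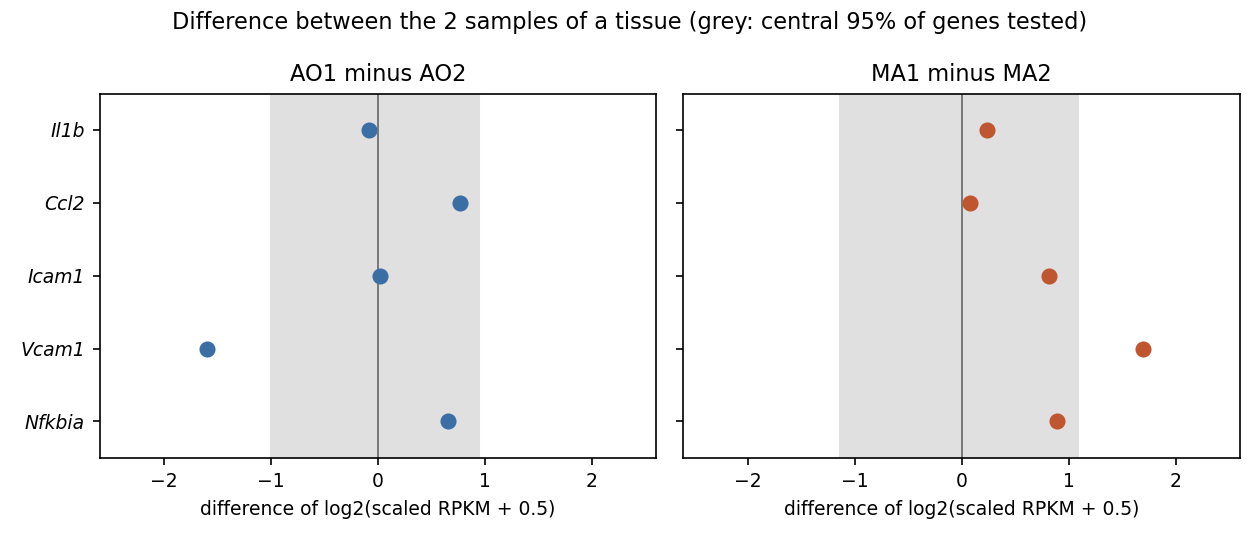
Difference of log2(scaled RPKM + 0.5) between the 2 samples of a tissue (x axis; left, AO1 minus AO2; right, MA1 minus MA2) for 5 genes (points). The grey band holds the central 95% of the genes tested on the same scale, from -0.99 to 0.94 in AO and -1.14 to 1.09 in MA, and of the 5 genes Vcam1 alone lies outside it, at -1.59 in AO and 1.70 in MA, while Il1b and Ccl2 were not among the genes tested and are pressed towards 0 by the added 0.5.

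MA1 was above MA2 in 5 of the 6 genes (all but Il6), compared with 47.2% of the genes tested. Il6, Il1b and Ccl2 are not among the genes tested, here and in the shares that follow. Ccl2 hardly differed, with a ratio of MA1 to MA2 of 1.09 (0.867 to 1.36), and Il6 had only 2 and 4 reads. As deposited, MA1 had the highest RPKM of the 4 samples for the same 5 genes, against 40.7% of the genes tested. After scaling this held for 3 of the 6, Il1b, Icam1 and Vcam1, against 17.7%, since AO1 was then the highest for Ccl2 and Nfkbia. Levels of endothelial, leukocyte or fat cell markers were not analysed here, because the files and reference tables used do not pair the identifiers of other genes with names, and their part in these differences was not tested.

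The gene tested whose pattern over the 4 samples came nearest to that of Vcam1, the member with the highest log2 fold change, was ENSRNOG00000003620. Its RPKM were 0.654 in AO1 and 3.70 in AO2, and 6.72 in MA1 and 1.44 in MA2, at a Euclidean distance of 0.169 on centred log2(scaled RPKM + 0.5) against a median of 1.82 over the genes tested. For Nfkbia, the member with the lowest log2 fold change, the nearest was ENSRNOG00000015354, at 1.14 RPKM in AO1 and 0.695 in AO2, and 1.45 in MA1 and 0.497 in MA2, and at a distance of 0.064 against a median of 0.954. Neither was called between the tissues (adjusted p = 0.844 and 0.663 from limma). Nothing is drawn from this about function.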

How the data were processed

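Libraries of 2 AO and 2 MA samples, grouped by their titles, were sequenced as paired ends on 1 lane. By the study's methods the authors aligned reads to the Ensembl rat genome (Rnor5.72) with TopHat, dropped reads with more than 2 locations, counted reads per gene and deposited RPKM for 26313 identifiers, not pooled.

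Library sizes, gene lengths and whole reads were worked back from the spacing of the RPKM values (numpy 2.4.6, numba 0.67.0, Python 3.11.15), taking the smallest length at which all samples gave whole reads within rounding, so a factor shared by all samples of a gene would be lost. All 20747 genes above 0 were solved. RPKM were scaled by median-of-ratios factors, and MA and AO compared by limma 3.58.1 in R 4.3.3 (lmFit, eBayes with trend) on log2(scaled RPKM + 0.5) over all 7203 genes with at least 1 RPKM in at least 2 samples. Fold changes on this scale understate those of low genes. The authors' DESeq test on counts was not repeated. Solver and fit were tested on simulated data. For the fit, these gave every gene the same variability beyond counting error, so they do not show its power for a gene as variable as Vcam1. The p values rest on 2 samples per tissue, with the variance of each gene drawn by limma towards that of the other genes tested. The main fit has no term for the rat that AO1 and MA1 share.

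The members and lists were chosen with earlier results of these data known. Named genes are the members and, by rule, the nearest pattern to the highest and the lowest of them. Alternatives covered scaling, pseudocount, filter, trend, block, false discovery rate, reads and left-out samples. As 0 of 47357 genes in the RefSeq table of GRCr8 come with an Ensembl identifier, the planned pathway and cell type lists were not analysed here. Promoters are RefSeq, GRCr8, a newer build than that of the files.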

Additional observations from a re-analysis of the deposited data

How the results depend on the processing

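None of the members tested was called under any alternative, including limma-voom on the recovered reads and each sample left out. Icam1 kept its sign in all 16 alternatives, with log2 fold changes from 0.028 to 0.84. Those that changed only the filter, trend, block or false discovery rate could not alter a fold change. They gave 0.44 again for Icam1, so they do not bear on its sign. Signs turned for Vcam1 without AO1 (-0.35) and without MA1 (-0.41). They turned for Nfkbia as deposited (0.20), without AO1 (0.049) and without MA2 (0.17). For Ccl2 the sign turned without AO2 (-0.16). For Il1b it turned under quantile normalization (-0.016), limma-voom with at least 10 reads (-0.052, chosen after seeing the data), and without AO1 (-0.026) or MA1 (-0.11). Without 1 sample in turn, Icam1 ranged from 0.028 to 0.84, Vcam1 from -0.41 to 1.29, Nfkbia from -0.73 to 0.17, Ccl2 from -0.16 to 0.60 and Il1b from -0.11 to 0.13, where the lone sample of a tissue is assumed to vary like the others. Il6, with 8 reads, was given no fold change. The causes were not tested.

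Over all genes, 555 were called, 368 with the filter of 0.1 RPKM and 0 of 20747 with no filter by limma, where 3434 had an unadjusted p of at most 0.05. Between 0 (without MA2, 1460 at an unadjusted p of at most 0.05) and 217 (without MA1) were called with a sample left out, 22 without AO1 and 33 without AO2.

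When replicate numbers entered limma as a block, 563 genes and 0 members were called. The adjusted p were 0.417 for Icam1, 0.827 for Vcam1 and 0.504 for Nfkbia. AO1 and MA1 share a rat but AO2 and MA2 do not, so a block by replicate number is not a full pairing by animal. The differences AO1 minus AO2 and MA1 minus MA2 correlated at 0.018 over genes.

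Of 60 alternative values for the log2 differences between samples of a tissue, 7 moved by more than the SD of the 2 samples. Il1b went from -0.08 to -0.23 with a pseudocount of 0.1 and to -0.64 as CPM from the recovered reads (no pseudocount) in AO, and from 0.24 to 0.69 and 1.36 in MA. Icam1 in AO went from 0.02 to -0.11 as deposited and -0.16 as CPM, and Ccl2 in MA from 0.07 to 0.13 as deposited. With 257 reads for Il1b and 511 for Ccl2 over the samples, counting error limits both.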
